A study of Mus musculus with 112 samples.

Results

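Type I interferon response genes are the genes that cells turn on when interferon reaches them, and 38 of them were followed in the mouse heart under caloric restriction (CR). The list was matched by gene symbol to the array, and 36 of the 38 genes had a probe set that carried only their symbol. They stand among 19938 genes measured in the same way. Isg15 and Ifi44 had no probe set of their own symbol alone and were not analysed here. Each array held heart RNA of 1 male mouse at 22 weeks of age. Mice of 7 strains, C57BL/6J, DBA/2J, B6C3F1/J, BALB/cJ, 129S1/SvImJ, C3H/HeJ and CBA/J, were given either CR or a control diet for 14 weeks, with 8 mice per diet in each strain, and all were fasted overnight before tissue was taken. B6C3F1/J is the first-generation hybrid of C57BL/6J and C3H/HeJ, and the other strains are inbred. Every mouse was given 84 kcal per week until restriction began at the age of 8 weeks. The food of CR mice was later lowered again in 129S1/SvImJ and C57BL/6J. BALB/cJ mice of both diets were fed more, so that BALB/cJ CR mice received the allotment given to control mice of other strains. The study reported that BALB/cJ alone had no significant fall in body weight under CR.

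In the textbook pathway, interferons alpha and beta bind the receptor made of Ifnar1 and Ifnar2, and the kinases Jak1 and Tyk2 activate transcription factors such as Stat2. With Irf9 these bind a short DNA element upstream of responsive genes, the interferon-stimulated response element. The products sense viral RNA, block its translation, degrade it, attach the ubiquitin-like protein ISG15 to other proteins, or prepare peptides for display to T cells. Most cells keep a low level of these transcripts without infection.

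Of the arrays, 111 were used, 55 of CR and 56 of control hearts. DBA/2J CR replicate 7 was left out because its signals correlated at only 0.262 with the mean of its group, against 0.894 to 0.993 as the lowest and the median of the others. That left 7 mice in the DBA/2J CR group. The tissue label was borne out by 8 cardiomyocyte markers, Myl2, Myl3, Myh6, Tnni3, Tnnt2, Actc1, Ryr2 and Pln. They ranked between the 99.3 and the 100 percentile of all genes by signal. CBA/J control replicate 1 had the lowest correlation of the arrays that were kept. Values below are log2 signals, on which a difference of 1 is a doubling, and CR minus control is negative where CR hearts were lower. In whole tissue, fewer cells of a type and less RNA per cell cannot be told apart.

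The response element was read in the promoters, since the members were listed for their shared response. RefSeq windows of build GRCm38.p6, from 250 bases before to 50 bases after the start of a gene, were found for 29 of the 38 genes. None was found for Dhx58, Mx1, Mx2, Oas2, Parp14, Parp9, Rtp4, Usp18 and Zbp1. The element core was searched as GAAA-NN-GAAA (hyphens only part the letters, N is any base) on both strands, and it reads TTTC-NN-TTTC on the other one. It was present in 11 of the 29 members (37.9%) and in 3.99% of 27025 genes. The gamma-activated site TTCNNNGAA, which reads the same on both strands, was present in 6 of the 29 (20.7%) and in 9.55% of all genes. In Bst2 a match of each motif overlapped the other. Of the measured members with a window, the core was present in 5 of 12 whose expression was lower in CR across strains (below) and in 5 of the other 15, and the gamma-activated site in 0 of those 12 and in 6 of the other 15. These matches describe letters in a window and were not tested for binding.

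The 250 bases before the start are printed for 5 genes on which the results below turn, with core matches in capitals. Ifit1 (chr19:34640639-34640888, plus strand) had 2 matches that began 104 and 85 bases before the start. Ifit3 (chr19:34583279-34583528, plus strand) had 2, at 156 and 122 bases, and Rsad2 (chr12:26456453-26456702, minus strand) had 1, at 120 bases. Oasl2 (chr5:114896684-114896933, plus strand) and Irf7 (chr7:141266425-141266674, minus strand) had none in this window.
Ifit1: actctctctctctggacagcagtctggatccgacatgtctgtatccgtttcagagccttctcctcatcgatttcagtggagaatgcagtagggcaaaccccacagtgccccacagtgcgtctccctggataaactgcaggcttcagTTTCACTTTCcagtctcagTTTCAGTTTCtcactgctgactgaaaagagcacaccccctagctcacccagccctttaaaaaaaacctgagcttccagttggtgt
Ifit3: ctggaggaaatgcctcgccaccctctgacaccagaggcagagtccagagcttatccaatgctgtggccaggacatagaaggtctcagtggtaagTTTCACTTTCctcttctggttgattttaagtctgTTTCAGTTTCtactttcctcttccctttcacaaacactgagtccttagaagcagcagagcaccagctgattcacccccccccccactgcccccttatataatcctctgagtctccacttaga
Rsad2: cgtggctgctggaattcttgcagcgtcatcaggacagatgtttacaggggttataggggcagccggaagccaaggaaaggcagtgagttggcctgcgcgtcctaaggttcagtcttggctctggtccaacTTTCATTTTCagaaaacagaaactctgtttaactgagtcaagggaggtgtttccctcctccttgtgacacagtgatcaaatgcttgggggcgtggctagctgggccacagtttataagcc
Oasl2: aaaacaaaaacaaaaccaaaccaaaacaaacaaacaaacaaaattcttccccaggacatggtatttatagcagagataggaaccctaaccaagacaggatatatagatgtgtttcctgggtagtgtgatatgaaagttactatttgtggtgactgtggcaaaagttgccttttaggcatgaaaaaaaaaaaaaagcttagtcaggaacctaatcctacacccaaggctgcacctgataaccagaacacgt
Irf7: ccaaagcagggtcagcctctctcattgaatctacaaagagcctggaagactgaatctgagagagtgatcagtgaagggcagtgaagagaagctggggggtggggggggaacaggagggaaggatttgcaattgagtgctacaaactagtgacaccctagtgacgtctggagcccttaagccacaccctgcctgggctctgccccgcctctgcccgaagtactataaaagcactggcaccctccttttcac

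Across the 7 strains, CR hearts had lower signals for interferon response genes of nearly every role. The mean difference was below 0 in 34 of the 36 genes (94.4%), against 51.6% of all genes, and the median difference was -0.12, against 0.00 over all genes. In limma's moderated test with Benjamini-Hochberg adjustment over all genes, 16 of the 36 members were lower in CR and 0 were higher. Over the whole array, 4.34% of genes were called lower and 7.69% higher. The 16 falls were small, between 0.10 and 0.25 on the log2 scale. By role, 3 of 4 sensors, 4 of 5 genes of the ISG15 and ubiquitin system, 2 of 4 of the OAS family, 3 of 11 other effectors and 1 gene in each of the 4 remaining roles were called lower.

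**Figure D1:**
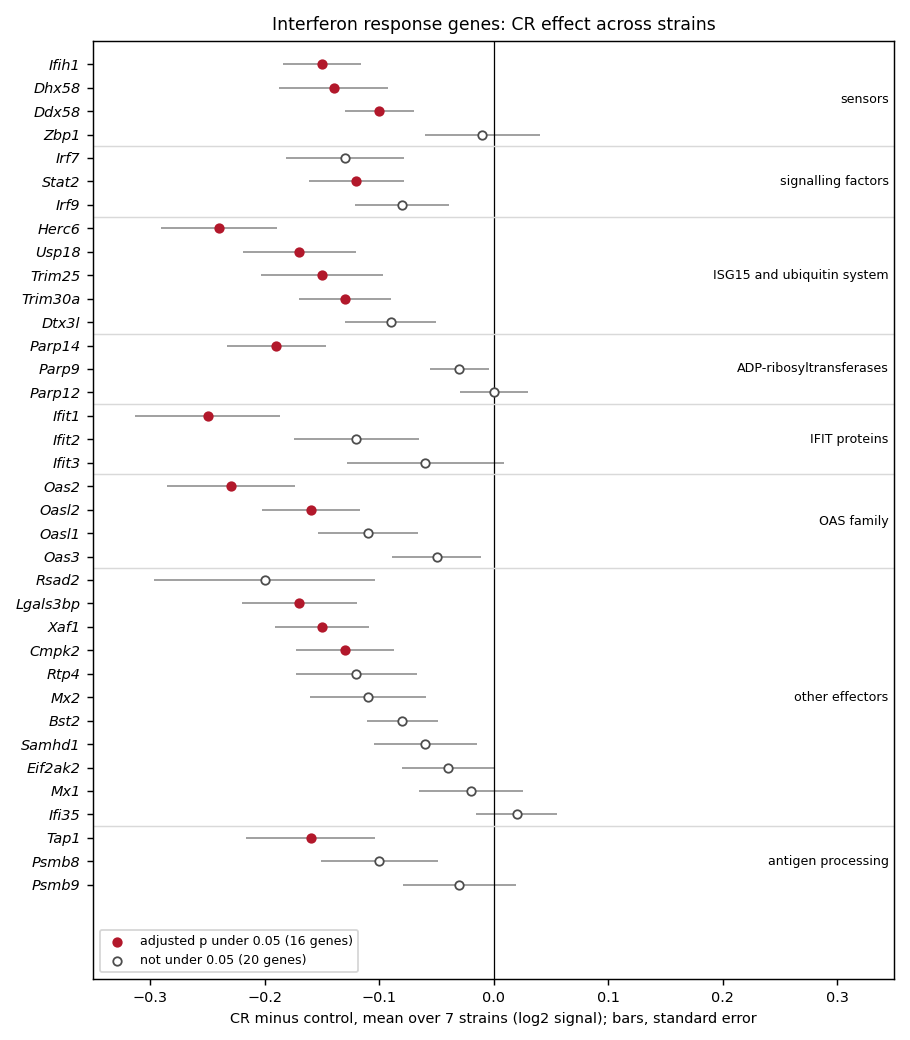
CR minus control in log2 signal (x axis), averaged over 7 strains, for each of the 36 measured genes (rows, grouped by role), with the standard error as bars. Filled points mark the 16 genes with an adjusted p under 0.05, all of them left of 0, and open points the other 20.

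Among the sensors of foreign nucleic acid, Ifih1, which encodes the RNA sensor MDA5, fell by 0.15 ± 0.0341 (SE; adjusted p = 0.000958, limma) and was lower in 6 of 7 strains. In C57BL/6J its signals had a lowest, median and highest value of 6.17, 6.52 and 6.93 in CR hearts, against 6.64, 6.96 and 7.23 in control hearts. The ranges overlapped, although the CR median lay below the lowest control. Ddx58, which encodes the RNA sensor RIG-I, fell by 0.10 ± 0.0304 (adjusted p = 0.0143), and Dhx58, which encodes the related helicase LGP2, fell by 0.14 ± 0.0479 (adjusted p = 0.0327). Zbp1, a sensor of left-handed nucleic acid, was at 5.09 in CR and 5.10 in control hearts averaged over strains.

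The signalling factors gave 1 call. Stat2, the subunit of the interferon-activated transcription factor that carries its transactivation domain, fell by 0.12 ± 0.0414 (adjusted p = 0.0379). Its DNA-binding partner Irf9 differed by -0.08 ± 0.0410 (adjusted p = 0.219), and Irf7, the factor that amplifies interferon production, by -0.13 ± 0.0512 (adjusted p = 0.0959). Both missed the threshold.

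Herc6, the enzyme that attaches ISG15 to proteins in the mouse, had the smallest p of all members. It fell by 0.24 ± 0.0508 (adjusted p = 0.000251) and was lower in all 7 strains. In DBA/2J its lowest, median and highest signals were 5.97, 6.32 and 6.76 in CR hearts, against 6.49, 6.64 and 7.15 in control hearts. In C3H/HeJ they were 5.96, 6.13 and 6.71 in CR hearts, against 6.04, 6.24 and 6.38 in control hearts. The groups overlapped in both strains, and in C3H/HeJ the highest CR mouse stood above every control. Usp18, the protease that removes ISG15 and restrains the receptor, fell by 0.17 ± 0.0494 (adjusted p = 0.010). In DBA/2J its values were 6.04, 6.22 and 6.33 in CR hearts, against 6.17, 6.64 and 7.14 in control hearts, so the CR mice lay at the low end of the control range. The ubiquitin ligases Trim30a (-0.13, adjusted p = 0.0193) and Trim25 (-0.15, adjusted p = 0.0487) were also called lower, and Dtx3l, the partner of Parp9, was not (-0.09, adjusted p = 0.133). Trim30a belongs to a family of close copies whose RNA the probe set may share, which was not tested.

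Parp14, an ADP-ribosyltransferase, fell by 0.19 ± 0.0433 (adjusted p = 0.000794) and was lower in 6 of 7 strains. Its lowest, median and highest signals in 129S1/SvImJ were 6.58, 6.76 and 7.16 in CR hearts, against 6.84, 6.98 and 7.03 in control hearts. The single high CR mouse there was replicate 4. The other transferases stayed near 0, Parp9 at -0.03 and Parp12 at 0.00.

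Ifit1, which binds viral RNA that lacks the host cap methylation, had the largest fall on the log2 scale among the members called, 0.25 ± 0.0631 (adjusted p = 0.00351), with lower means in 5 of 7 strains. In DBA/2J its lowest, median and highest signals were 5.76, 6.18 and 6.30 in CR hearts, against 6.36, 6.50 and 7.48 in control hearts. Every CR mouse of that strain was below every control mouse. Its neighbour Ifit2 was separated there in the same way, at 6.12, 6.29 and 6.41 in CR hearts, against 6.48, 6.62 and 7.20 in control hearts. These 2 members were named after their values were seen, and 0.0602% of all genes were separated in that direction in DBA/2J. In B6C3F1/J, by contrast, Ifit1 values were 5.98, 6.46 and 6.81 in CR hearts, against 5.91, 6.24 and 6.77 in control hearts, and the ranges nearly coincided. Across strains Ifit2 (-0.12) and Ifit3 (-0.06) were not called. Ifit3 has a near-identical neighbour, Ifit3b, whose RNA the probe set may also read, which was not tested.

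In the OAS family, whose founding enzymes make the oligoadenylates that activate RNase L, Oas2 fell by 0.23 ± 0.0559 (adjusted p = 0.00233) and was lower in all 7 strains. Its lowest, median and highest signals in B6C3F1/J were 5.25, 5.95 and 6.38 in CR hearts, against 5.83, 6.56 and 6.80 in control hearts. The groups overlapped, with the CR median close to the lowest control. Oasl2, a family member with ubiquitin-like repeats, fell by 0.16 ± 0.0428 (adjusted p = 0.00551). Oasl1 was lower in all 7 strains but missed the threshold (-0.11, adjusted p = 0.0938), and Oas3 was among the dim members, with a mean signal of 4.44 in CR and 4.49 in control hearts.

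Among the other effectors, Xaf1, a promoter of cell death, fell by 0.15 ± 0.0408 (adjusted p = 0.00559). In DBA/2J its lowest, median and highest signals were 6.72, 7.08 and 7.27 in CR hearts, against 7.08, 7.36 and 7.77 in control hearts. The secreted glycoprotein gene Lgals3bp (-0.17, adjusted p = 0.0123) and the mitochondrial nucleotide kinase gene Cmpk2 (-0.13, adjusted p = 0.0244) were called lower as well. Rsad2, which encodes the antiviral enzyme viperin and neighbours Cmpk2, had a difference of -0.20 with a standard error of 0.0966 (adjusted p = 0.186), the widest error of the 36. The tether Bst2 (-0.08, adjusted p = 0.0633) fell just short of a call. The kinase gene Eif2ak2, the deoxynucleotide hydrolase gene Samhd1, Rtp4 and Ifi35 were not called. The GTPases Mx1 (3.35 in CR and 3.37 in control hearts) and Mx2 (3.93 in CR and 4.04 in control hearts) were the dimmest members, and differences of such dim genes are compressed. Of the genes for antigen processing, the peptide transporter Tap1 (-0.16, adjusted p = 0.050, just under the threshold before rounding) was called and the proteasome subunits Psmb8 (-0.10) and Psmb9 (-0.03) were not.

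The call did not rest evenly on the strains. Herc6, Parp14, Ifih1 and Oas2 remained called under each of 28 alternative settings. Trim25 lost its call under 13 of them, Tap1 under 11 and Stat2 under 7, and Dhx58 lost it under 9 of 27. Oasl2 lost its call under 1 of 28, the fit without C57BL/6J (adjusted p = 0.215, limma). The count of members called lower was 7 without C57BL/6J, 7 without DBA/2J and 8 without B6C3F1/J, and it was 23 without CBA/J. Of all genes, 885, 819, 500 and 1155 were called lower in the same order, against 865 with all strains. The smaller count without B6C3F1/J thus went with fewer calls over the whole array. Marker genes of other cells were set beside the across-strain result. Of 8 endothelial markers, Pecam1 (-0.13), Cdh5 (-0.26), Tie1 (-0.20) and Cldn5 (-0.17) were called lower in CR. Tek (-0.04), Kdr (0.01), Emcn (-0.02) and Egfl7 (-0.06) were not called. Of 8 macrophage markers, Cd68 (0.28), C1qa (0.18) and C1qb (0.22) were called higher. Adgre1 (0.07), Csf1r (-0.04), Cd163 (0.13), Mrc1 (0.12) and Fcgr1 (0.01) were not called. Of 4 dendritic cell markers, Siglech, of plasmacytoid dendritic cells, was called lower (-0.15, adjusted p = 0.00351). Flt3 (-0.03), Xcr1 (-0.05) and Itgax (0.04) were not called. Of 7 T and NK cell markers 0 were called, with a median of -0.19. Their mean ranged from 4.45 to 4.63 in DBA/2J CR hearts, against 4.44 to 8.00 in DBA/2J control hearts, where replicate 5 was the highest. In BALB/cJ it ranged from 4.21 to 4.52 in CR hearts, against 4.38 to 7.11 in control hearts. With macrophage and lymphocyte marker means as covariates 15 members were called lower, and with atrial and white adipocyte means 16. The mean of the 8 endothelial markers ranged from 8.49 to 8.66 in 129S1/SvImJ CR hearts, against 8.70 to 9.04 in 129S1/SvImJ control hearts, with no overlap. It ranged from 7.64 to 8.73 in B6C3F1/J CR hearts, against 8.38 to 9.06 in B6C3F1/J control hearts. The part of endothelial and dendritic cells in the result was not tested.

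Other genes of the pathway were taken from lists written from textbook knowledge, and their counts stand against the same 4.34% of all genes called lower and 7.69% called higher. Of 16 measured interferon genes, 2 were called lower, Ifna16 (-0.21, adjusted p = 0.0184) and the lambda interferon gene Ifnl2 (-0.12, adjusted p = 0.0475). The mean signals of the interferon genes lay between 2.31 and 7.11, and interferon beta (Ifnb1) was at 3.38. Ifna16 was dim too, at 4.21 (the 21.2 percentile of all genes). Of 7 receptors and kinases, the interferon gamma receptor chain Ifngr2 was called higher (0.24, adjusted p = 1.95e-05). The type I receptor chains differed little, Ifnar1 by -0.01 and Ifnar2 by 0.01, and neither was called. Of 11 sensors and adaptors 0 were called by limma, and 2 had an unadjusted p under 0.05. Among 5 transcription factors Irf1 was called lower (-0.13, adjusted p = 0.0494) and Irf3 higher (0.09, adjusted p = 0.0103). Of 8 inhibitors, the receptor brake Socs1 (-0.14, adjusted p = 0.0223) and the RNA editor Adar (-0.09, adjusted p = 0.0359) were called lower. Of 34 further interferon-stimulated genes, 8 were called lower, such as Helz2 (-0.20, adjusted p = 0.00149) and Tor3a (-0.12, adjusted p = 0.000376), and 1 higher, the membrane protein gene Ifitm1 (0.19, adjusted p = 1.24e-05). Their median difference was -0.07. Of 9 further antigen processing genes, Tapbpl was called lower (-0.10, adjusted p = 0.0338) and the proteasome activator Psme1 higher (0.14, adjusted p = 0.0141).

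The CR effect was then taken within each strain, and these counts go by the sign of the difference, not by a test. The lowest values were in C57BL/6J, with a negative difference in 34 of 36 members and a median of -0.32, followed by DBA/2J with 35 lower and a median of -0.20 and B6C3F1/J with 31 lower and a median of -0.18. BALB/cJ (30 lower, median -0.08), 129S1/SvImJ (27 lower, median -0.07) and C3H/HeJ (29 lower, median -0.05) had medians closer to 0. In CBA/J 30 members were higher in CR, with a median of 0.16. The median over all genes was between 0.00 and 0.01 in each strain. By role, the mean effect of the 3 antigen processing genes was -0.48 in C57BL/6J and 0.28 in CBA/J, and that of the 3 IFIT genes was -0.48 in DBA/2J, -0.47 in C57BL/6J and 0.30 in CBA/J. The OAS family differed least, with role means between -0.22 in B6C3F1/J and 0.00 in CBA/J.

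**Figure D2:**
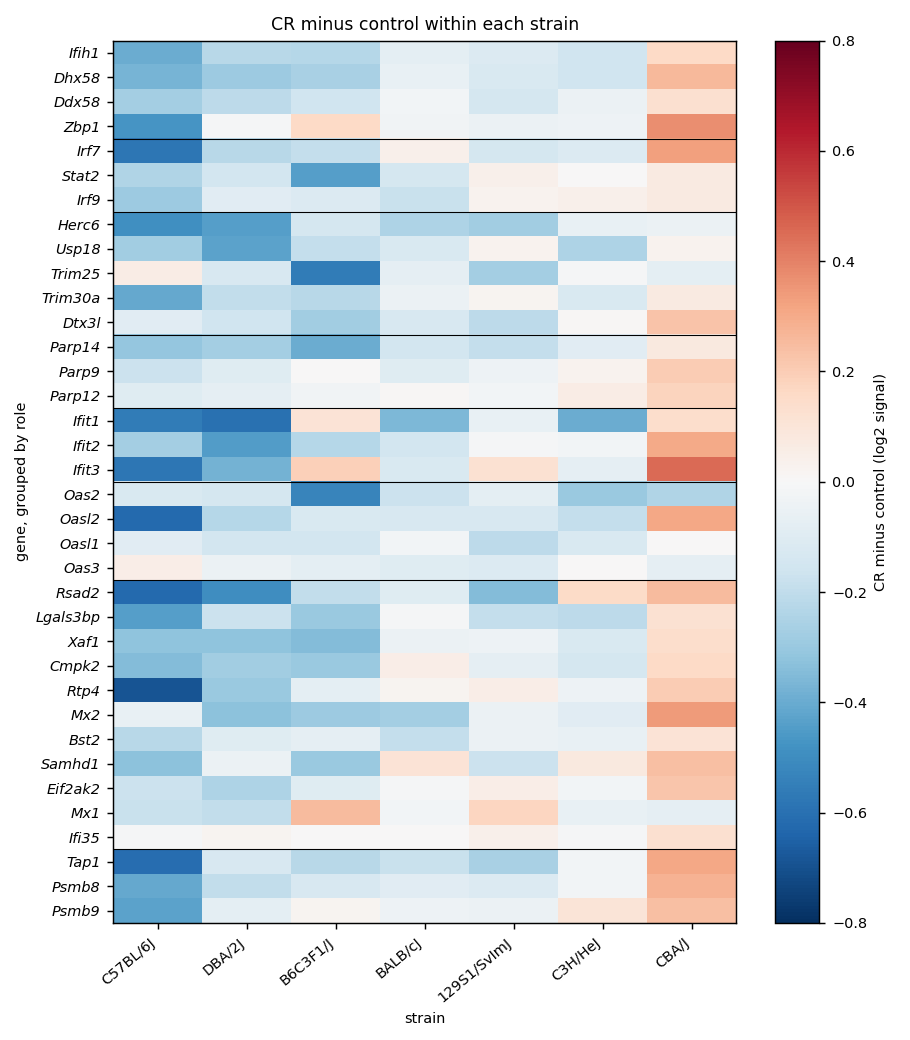
CR minus control in log2 signal within each strain (columns) for the 36 measured genes (rows, grouped by role with lines between roles), as a colour scale from -0.8 (blue, lower in CR) to 0.8 (red, higher in CR). The C57BL/6J column is blue in 34 rows and the CBA/J column is red in 30.

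The mean signal of the 36 genes per mouse was then compared between the diets. In C57BL/6J it had a lowest, median and highest value of 6.22, 6.32 and 6.40 in CR hearts, against 6.25, 6.64 and 6.90 in control hearts. The control mice were spread widely (SD 0.218, n = 8) and the CR mice narrowly (SD 0.0624, n = 8), and 1 control lay within the CR range. In DBA/2J the values were 6.26, 6.35 and 6.55 in CR hearts, against 6.40, 6.55 and 6.81 in control hearts. In CBA/J they were 6.24, 6.38 and 6.99 in CR hearts, against 5.93, 6.32 and 6.39 in control hearts. A single high CR mouse (replicate 7, at 6.99) and a single low control mouse (replicate 1, at 5.93) stood apart there. Without CBA/J CR replicate 7 the median member effect in CBA/J was 0.08 with 26 members higher, and without CBA/J control replicate 1 it was 0.09 with 29 higher. Without both it was 0.02 with 24 higher.

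**Figure D3:**
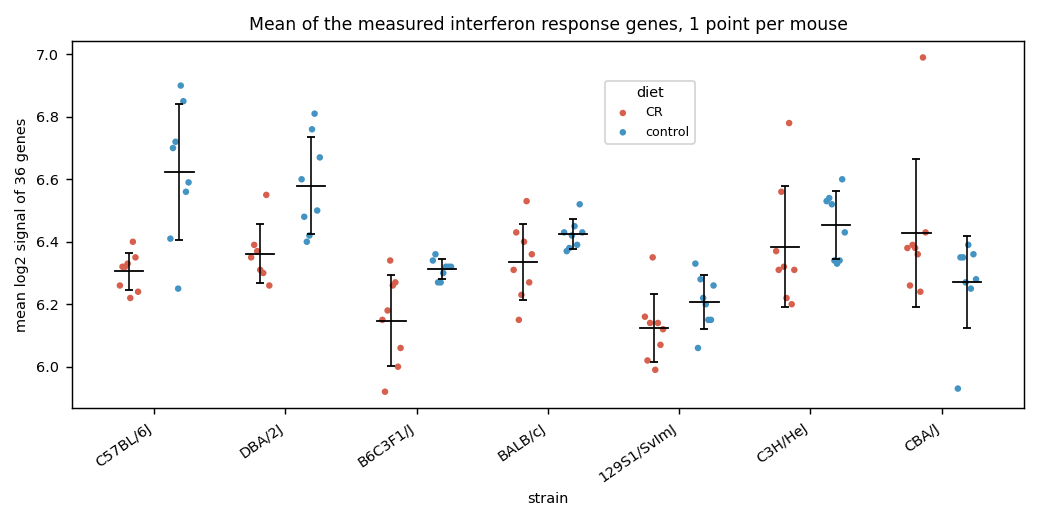
Mean log2 signal of the 36 genes (y axis) for each mouse (points) by strain (x axis), with CR mice left of control mice, and black lines for the group mean and SD. C57BL/6J control mice range from 6.25 to 6.90 and CR mice from 6.22 to 6.40, and the highest CBA/J CR mouse is at 6.99.

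Within single strains few members passed the test when only that strain's arrays were fitted. In 129S1/SvImJ 2 of 36 members (5.56%) were called, below the 6.83% of all genes called there in either direction. This count of calls does not set the members apart. Limma gave 9 members lower and 0 higher in 129S1/SvImJ at an unadjusted p under 0.05, where 9.65% of all genes were lower. Rsad2 had a lowest, median and highest signal of 5.67, 6.00 and 6.24 in CR hearts, against 6.10, 6.32 and 6.58 in control hearts, and fell by 0.35 ± 0.0823 (adjusted p = 0.0118, limma). Trim25 had 6.60, 6.81 and 7.00 in CR hearts, against 6.91, 7.07 and 7.19 in control hearts, and fell by 0.27 ± 0.0671 (adjusted p = 0.0174). Both genes overlapped between the diets only at the edge of their ranges. The endothelial marker mean was separated between the diets in this strain, as given above, and its part in these calls was not tested. Without 129S1/SvImJ CR replicate 4 there were 5 members called, all lower, and the share of all genes without that array is not given here. With all 14 groups in 1 fit 0 members were called, where 459 of all genes were.

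In the other 6 strains limma called 0 members on the strain's own arrays. The background was 0.908% of all genes in B6C3F1/J, 0.251% in C57BL/6J, 0.0552% in C3H/HeJ, 0.0150% in CBA/J, 0.010% in DBA/2J and 0 in BALB/cJ. At an unadjusted p under 0.05, 23 members were lower in C57BL/6J, where 6.33% of all genes were, and 0 were higher. The same count was 14 lower in DBA/2J (2.13% of all genes), 12 lower and 1 higher in B6C3F1/J (11.5% lower), 6 lower in C3H/HeJ (2.97%), 4 lower in BALB/cJ (2.17%) and 6 higher in CBA/J (3.34%). When all 14 groups shared 1 estimate of the spread, limma called 14 members lower in C57BL/6J, where 2.14% of all genes were, and 5 in B6C3F1/J, where 7.89% were. The 14 became 5 with DBA/2J CR replicate 7 put back and 7 with macrophage and lymphocyte marker means as covariates. Without C57BL/6J CR replicate 4, whose correlation with its group was 0.960, 6 members were called on that strain's own arrays. The shares of all genes under these changed settings are not given here, so the changes cannot be read as particular to the members.

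The strain by diet interaction asked whether the CR effect differed among the 7 strains. It was called for 1 of 36 members, Oasl2 (F = 5.82, adjusted p = 0.0120, limma), and for 0.712% of all genes. Rtp4 (adjusted p = 0.0608) and Irf7 (adjusted p = 0.0749) came next. Without C57BL/6J CR replicate 4 there were 5 members called, while the number of all genes called was 653, against 142 with it.

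The strains with the lowest and the highest median effect, C57BL/6J and CBA/J, were then set against each other. This pair was chosen with earlier results of these data known, so its p-values are not independent support of the difference. The effect in C57BL/6J minus that in CBA/J was below 0 in 33 of 36 members, with a median of -0.45, against 46.2% of all genes and a median of 0.02. It was called below 0 for 8 members and above 0 for 0, where 0.286% of all genes were called below and 0.155% above.

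Oasl2 differed most by p. In C57BL/6J its lowest, median and highest signals were 6.42, 6.80 and 7.15 in CR hearts, against 6.77, 7.31 and 7.85 in control hearts. In CBA/J they were 6.65, 6.92 and 7.31 in CR hearts, against 6.01, 6.75 and 6.92 in control hearts. On their own arrays neither the CR effect in C57BL/6J (-0.62, adjusted p = 0.0792, limma) nor that in CBA/J (0.31, adjusted p = 0.710) was called, and the difference of the effects was -0.93 ± 0.159 (SE; adjusted p = 0.000185). Irf7, the amplifying transcription factor, was at 5.87, 6.09 and 6.51 in C57BL/6J CR hearts, against 6.09, 6.78 and 7.05 in C57BL/6J control hearts. In CBA/J its signals were 5.71, 6.24 and 7.23 in CR hearts, against 5.25, 6.09 and 6.40 in control hearts. The difference of effects was -0.91 ± 0.190 (adjusted p = 0.00729), and the CBA/J groups overlapped widely.

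Rtp4, a chaperone of membrane receptors, ran from 5.88 through 6.15 to 6.57 in C57BL/6J CR hearts, against 5.96, 7.01 and 7.60 in C57BL/6J control hearts. In CBA/J it was at 6.29, 6.49 and 7.54 in CR hearts, against 5.94, 6.45 and 6.68 in control hearts. The CBA/J medians nearly coincided, and the highest CR mouse was replicate 7. The difference of effects was -0.89 ± 0.196 (adjusted p = 0.0117). Zbp1 was at 4.93, 5.13 and 5.40 in C57BL/6J CR hearts, against 5.19, 5.64 and 6.12 in C57BL/6J control hearts. In CBA/J it was at 4.72, 5.22 and 6.32 in CR hearts, against 4.59, 4.88 and 5.38 in control hearts, and the difference was -0.84 ± 0.188 (adjusted p = 0.0138). Ifih1 (-0.56), Tap1 (-0.92), Ifit3 (-1.03) and Parp9 (-0.38) were called too.

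**Figure D4:**
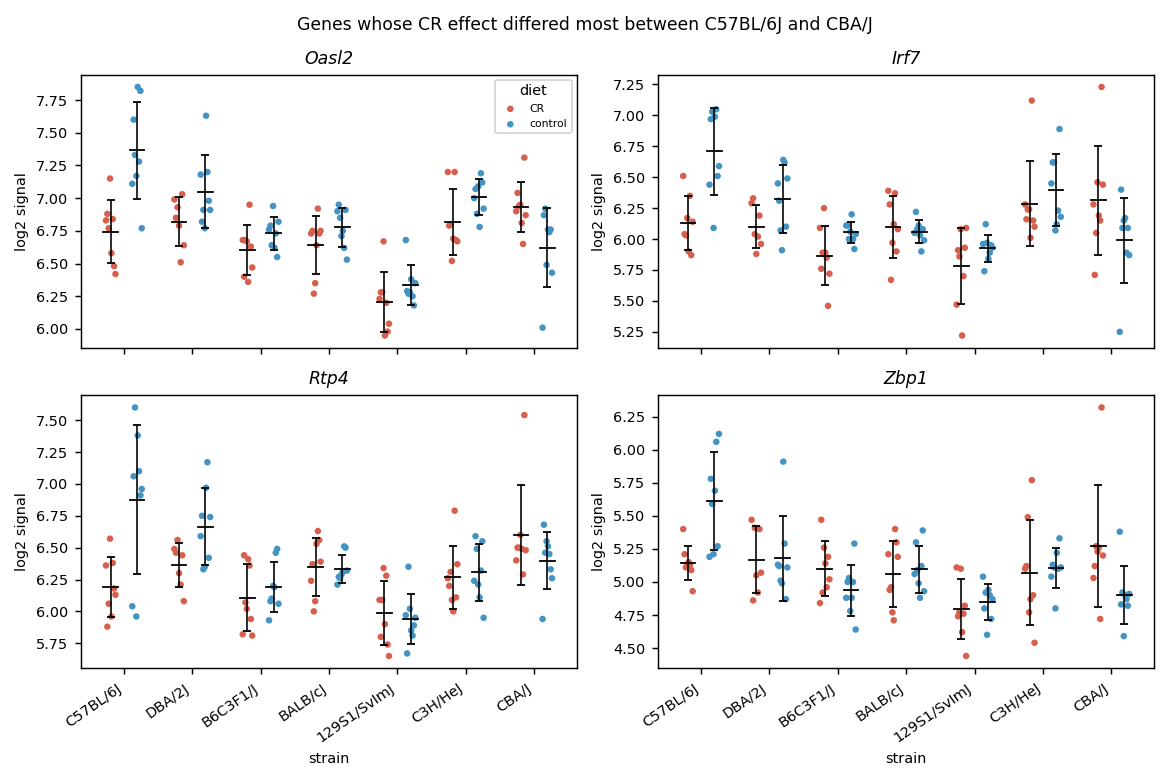
Log2 signal (y axis) of Oasl2, Irf7, Rtp4 and Zbp1 in each mouse (points) by strain (x axis), with CR mice left of control mice, and black lines for the group mean and SD. C57BL/6J control mice reach 7.85 for Oasl2 against 7.15 in C57BL/6J CR mice, and the highest CBA/J CR mouse for Zbp1 is at 6.32.

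Without CBA/J CR replicate 7 the contrast was called for 5 members, and without both that array and CBA/J control replicate 1 for 3, Oasl2 (-0.79, adjusted p = 0.00260), Irf7 (-0.67, adjusted p = 0.0475) and Zbp1 (-0.76, adjusted p = 0.0181). With DBA/2J CR replicate 7 put back it was also 3. Markers of other tissue moved in C57BL/6J. The mean of 5 atrial markers ranged from 6.06 to 10.96 in CR hearts, against 7.03 to 11.55 in control hearts, with a difference of -2.48, and the mean of 5 of 6 white adipocyte markers from 4.64 to 8.95 in CR hearts, against 4.98 to 9.03 in control hearts, with a difference of -1.30. With the atrial and white adipocyte means as covariates 10 members were called. Means of brown adipocyte (-2.08), smooth muscle (-0.84), monocyte (-0.60) and B cell (-0.50) markers were also lower in C57BL/6J CR hearts. That of the 8 cardiomyocyte markers was higher (0.39). The part of brown adipocytes, smooth muscle and monocytes in the contrast was not tested. The mean of 8 macrophage markers ranged from 6.83 to 7.34 in C57BL/6J CR hearts, against 6.82 to 7.74 in C57BL/6J control hearts, and in CBA/J from 6.66 to 7.27 in CR hearts, against 6.35 to 6.97 in control hearts. With macrophage and lymphocyte means as covariates 3 members were called, and the median effect was -0.28 in C57BL/6J and 0.12 in CBA/J. The shares of all genes called under these changed settings are not given here, so the changed counts cannot be read as particular to the members.

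Mice of the control diet alone gave the strain differences without restriction. The strain means differed for 32 of 36 members in limma's F test, where 56.5% of all genes did. The range of the 7 strain means had a median of 0.60 over the members, against 0.39 over all genes. C57BL/6J was the highest strain for 20 of 36 members, against 19.8% of all genes, and 129S1/SvImJ the lowest for 16, against 14.3% of all genes. Under CR, C57BL/6J was the highest strain for 4 members (13.6% of all genes) and CBA/J for 11 (11.2% of all genes), 129S1/SvImJ was the lowest for 15 (13.6% of all genes) and B6C3F1/J for 14 (25.4% of all genes). Control hearts of C57BL/6J also stood apart in markers of other tissue: the mean of atrial markers was 10.25, against 6.50 to 8.16 in the other control groups, that of white adipocyte markers 7.20, against 4.98 to 5.36, that of brown adipocyte markers 8.55, against 5.00 to 6.24, and that of monocyte markers 4.24, against 3.35 to 3.58. With atrial and white adipocyte means as covariates 33 members differed between strains. The part of brown adipocytes and monocytes was not tested. Whether strain sequence differences lie under the probes was not tested. Ifi35, Eif2ak2, Oas3 and Oasl1 were not called.

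Rsad2 had the widest range, 1.83. Its lowest, median and highest control signals were 7.57, 8.02 and 9.27 in C57BL/6J, 6.56, 7.17 and 7.69 in DBA/2J, 5.95, 6.34 and 6.82 in CBA/J and 6.10, 6.32 and 6.58 in 129S1/SvImJ. Every C57BL/6J mouse was above every CBA/J and 129S1/SvImJ mouse (adjusted p over strains = 3.71e-08). In BALB/cJ and C3H/HeJ single mice were spread across most of that range, from 6.06 to 8.07 and from 6.51 to 8.39. Ifit3 ranged by 1.69, with 6.98, 8.06 and 8.72 in C57BL/6J, 6.96, 7.37 and 7.70 in C3H/HeJ, 5.47, 6.46 and 6.75 in 129S1/SvImJ and 5.97, 6.21 and 6.53 in BALB/cJ (adjusted p = 1.97e-11). BALB/cJ and 129S1/SvImJ lay below all C57BL/6J mice and overlapped each other. Ifit1 ranged by 1.61, with 6.24, 7.61 and 7.82 in C57BL/6J and 5.33, 5.73 and 6.03 in 129S1/SvImJ (adjusted p = 2.37e-09), and the BALB/cJ mice lay between 5.86 and 6.30.

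Xaf1 followed another order. Its control signals were 7.08, 7.36 and 7.77 in DBA/2J, 6.34, 6.66 and 6.75 in 129S1/SvImJ, and 5.29, 6.16 and 6.48 in CBA/J (adjusted p = 5.22e-16). Every DBA/2J mouse was above every mouse of the other strains, the same strain was the highest under CR, and C57BL/6J was among the low strains, at 5.79, 6.15 and 6.54. Oasl2 ranged by 1.03, with a median of 7.31 in C57BL/6J, 7.03 in C3H/HeJ, 6.95 in DBA/2J, 6.80 in BALB/cJ, 6.75 in B6C3F1/J and CBA/J and 6.29 in 129S1/SvImJ (adjusted p = 3.78e-09). The middle strains overlapped. Oas2 ranged by 0.96, with 6.16, 7.04 and 7.74 in DBA/2J, 6.43, 6.84 and 7.25 in C3H/HeJ, 5.89, 6.16 and 6.71 in C57BL/6J and 5.67, 6.00 and 6.27 in 129S1/SvImJ (adjusted p = 1.78e-05). Here too C57BL/6J was not the high strain, and DBA/2J mice were spread over most of the range.

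**Figure D5:**
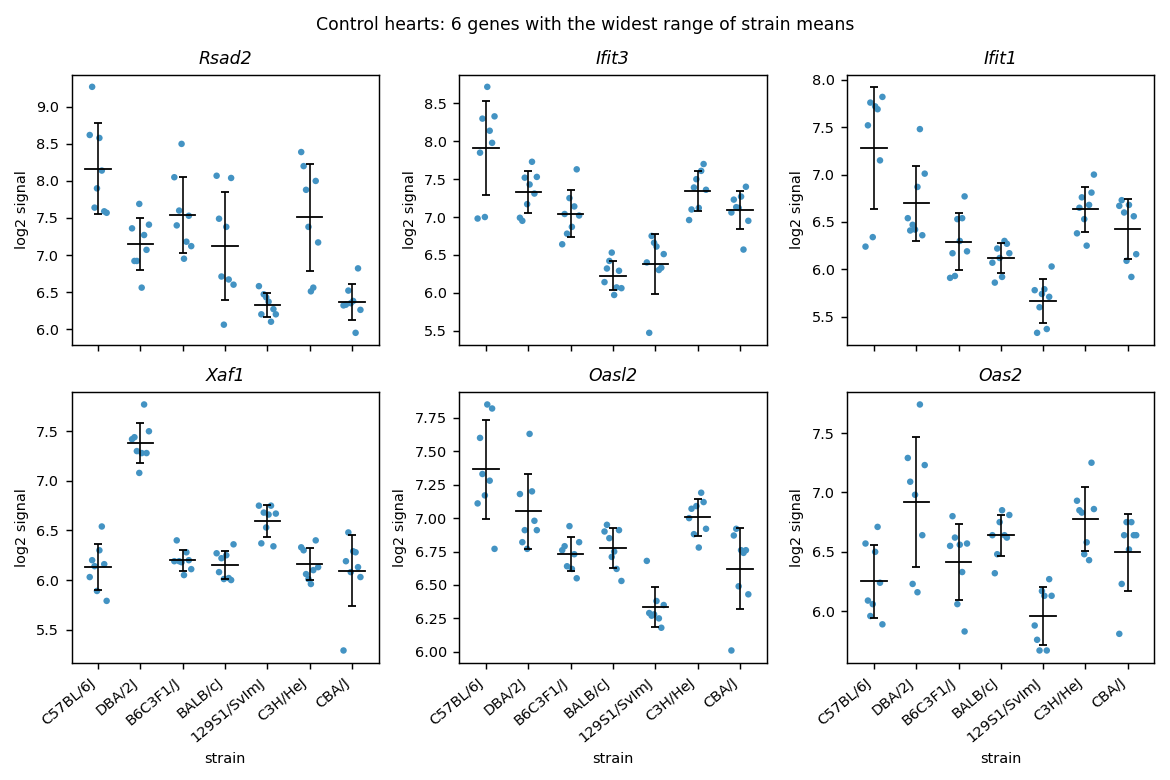
Log2 signal (y axis) of the 6 genes with the widest range of strain means, in control mice (points) of the 7 strains (x axis), with black lines for the mean and SD. Rsad2, Ifit3, Ifit1 and Oasl2 are highest in C57BL/6J, and Xaf1 and Oas2 are highest in DBA/2J.

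The hybrid did not sit midway between its parents. Control hearts of B6C3F1/J were below the mean of C57BL/6J and C3H/HeJ for 10 members and above it for 0, where 3.20% of all genes were called below and 5.18% above. The median departure was -0.23 over the members and 0.00 over all genes. The hybrid mean was below both parents in 26 of 36 members, against 30.5% of all genes, between them in 6 and above both in 4. Irf7 had a lowest, median and highest signal of 5.92, 6.05 and 6.20 in B6C3F1/J, against 6.09, 6.78 and 7.05 in C57BL/6J and 6.07, 6.34 and 6.89 in C3H/HeJ. The departure was -0.50 ± 0.106 (SE; adjusted p = 0.00123, limma). Oasl2 was at 6.55, 6.75 and 6.94 in B6C3F1/J, against 6.77, 7.31 and 7.85 in C57BL/6J and 6.78, 7.03 and 7.19 in C3H/HeJ, a departure of -0.46 ± 0.101 (adjusted p = 0.00189). Ifit1 was at 5.91, 6.24 and 6.77 in B6C3F1/J, against 6.24, 7.61 and 7.82 in C57BL/6J and 6.25, 6.67 and 7.00 in C3H/HeJ, a departure of -0.66 ± 0.150 (adjusted p = 0.00242). For each of the 3 genes the hybrid median lay at or just under the lowest mouse of both parents, while the highest hybrid mice overlapped the parents. Zbp1, Parp9, Ifit3, Ifih1, Irf9, Rtp4 and Lgals3bp were called below as well, by 0.24 to 0.58 on the log2 scale. With macrophage and lymphocyte marker means as covariates 5 members were called, and with atrial and white adipocyte means 14. The shares of all genes under these covariates are not given here. The mean of macrophage markers in control hearts was 6.80 in B6C3F1/J, against 7.29 in C57BL/6J and 6.98 in C3H/HeJ, and that of atrial markers was 7.53 in B6C3F1/J, against 10.25 in C57BL/6J and 8.04 in C3H/HeJ.

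The members did not all vary together from mouse to mouse. After the mean of each group was taken off, the correlation of a gene with the mean of the other 35 over the 111 arrays was 0.80 for Parp14, 0.78 for Irf7 and Irf9 and 0.75 for Trim30a. It was 0.20 for Mx1, 0.24 for Mx2 and -0.07 for Oas3, which are dim. Rsad2, a bright gene, was at 0.31. The median over 630 pairs was 0.30. These values are descriptions over arrays that share a normalization.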

How the data were processed

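Heart RNA was hybridised to Affymetrix Mouse Gene 1.0 ST arrays (1 mouse each), and tests rest on the spread among mice. The authors deposited log2 values, computed from the scans by gene-level RMA-Sketch in Expression Console (background correction, quantile normalization, median polish). The software versions were not given in the sources used here. Quantile normalization partly removes a change shared by most genes. Precision depends on how many arrays a group has and on the spread among its mice.

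Of 35556 probe sets, 21789 had 1 gene symbol, 1621 had several and 12146 were not named. The brightest probe set stood for a gene (999 genes had several), and no filter was applied. limma 3.58.1 in R 4.3.3 fitted a mean per group over all 19938 genes, within-strain effects on the strain's own arrays, and control contrasts on the 56 control arrays, with a 2-sided Benjamini-Hochberg threshold of 0.05. Figures were drawn with matplotlib 3.10.9 in Python 3.11.15. In data simulated for the across-strain comparison over 19938 genes, 93 of 100 changes of 0.25 and 99 of 100 of 0.5 were called. Each run had 15 false calls, a larger share of its calls than the threshold of 0.05. Smaller changes, such as the median member difference of -0.12, were not simulated. Only 100 genes were changed, against 2399 called in the data, so the simulation does not tell how many members were missed. Alternatives were another normalization, a filter on dim genes, the mean of probe sets, array weights, a trended variance, blocks by replicate number, marker covariates and left-out arrays or strains. Members, lists and tests were chosen with earlier results of these data known. Members with full values were, by rule, the smallest p-values per comparison (8 across strains, 2 per strain, 4 for the interaction and for C57BL/6J minus CBA/J, 3 for the hybrid) and the 6 widest control ranges.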

Additional observations from a re-analysis of the deposited data

Results flagged for a closer look

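Of 196 sets of 7 or 8 mice (14 genes in 14 groups), 22 held a mouse apart from the rest by Dixon's criterion (11.2%). Chance gives about 5% for a single set. The 14 genes were measured in the same mice, so the sets are not independent and the 2 shares cannot be compared as a test. CBA/J CR replicate 7 was the highest of its group in Parp14 (7.54), Ifit1 (7.60), Xaf1 (6.86), Rtp4 (7.54) and Zbp1 (6.32), and in the mean of the 36 genes (6.99). CBA/J control replicate 1 was the lowest in Parp14 (5.91), Xaf1 (5.29), Irf7 (5.25), Trim25 (5.49) and the 36-gene mean (5.93), and the highest in Zbp1 (5.38). 129S1/SvImJ CR replicate 4 was the highest in Parp14 (7.16), Oasl2 (6.67) and the 36-gene mean (6.35). C3H/HeJ CR replicate 6 was the highest in Herc6 (6.71), Irf7 (7.12) and Rtp4 (6.79). Single mice stood apart in Parp14 (B6C3F1/J CR replicate 2, 5.81, and B6C3F1/J control replicate 7, 6.73), Oas2 (C57BL/6J CR replicate 4, 5.29), Oasl2 (129S1/SvImJ control replicate 1, 6.68), Zbp1 (DBA/2J control replicate 5, 5.91), Rsad2 (C3H/HeJ CR replicate 7, 6.35) and Ifit3 (129S1/SvImJ control replicate 2, 5.47).

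The CR effect differed between strains for Oasl2 in the interaction test (F = 5.82). C57BL/6J minus CBA/J was -0.93 for Oasl2, -0.91 for Irf7, -0.89 for Rtp4, -0.84 for Zbp1, -0.56 for Ifih1, -0.92 for Tap1, -1.03 for Ifit3 and -0.38 for Parp9.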

How the results depend on the processing

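None of the 16 members called lower across strains, and none of the 8 called in C57BL/6J minus CBA/J, changed sign under the alternatives run. Across strains the count of 16 became 11 with each array centered on its median (2262 of all genes, against 2399). With DBA/2J CR replicate 7 included it was also 11 (1066 of all genes). The count became 7 without the strain C57BL/6J, 7 without DBA/2J and 8 without B6C3F1/J. Over fits that each dropped 1 array with unusual signals it ranged from 12 to 19. The interaction count of 1 became 2 with dim genes left out, 17 with array weights (5207 of all genes, against 142), 4 with atrial and white adipocyte covariates, and 2 without C3H/HeJ CR replicate 6 (chosen after the data were seen), and ranged from 1 to 5 without single arrays. The 8 calls in C57BL/6J minus CBA/J became 3 with DBA/2J CR replicate 7 included, 16 with array weights (2680 of all genes, against 88), 3 with macrophage and lymphocyte covariates and 3 without both CBA/J arrays that stood apart (also chosen after the data were seen), and ranged from 5 to 12 without single arrays. The hybrid count of 10 became 23 with array weights (5104 of all genes, against 1671), 5 with macrophage and lymphocyte covariates and 9 with dim genes left out, and ranged from 10 to 14 without single arrays. The 32 control calls stayed between 28 and 33. With array weights 24 members were called across strains (4480 of all genes, against 2399), and the cause was not tested in any of these. A count given without the share of all genes under its setting does not tell whether the members or the whole array moved.

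Within 129S1/SvImJ the count of 2 became 4 with dim genes left out, 0 with all 14 groups in 1 fit and 5 without an array. In C57BL/6J the count of 0 became 1 with dim genes left out, 14 with all groups in 1 fit, 13 by the methods' t-test at an unadjusted p under 0.01, and 6 without an array. In B6C3F1/J it became 1, 5 and 6 under the same 3 settings and 1 by the t-test after adjustment. The t-test at that threshold gave 6 lower in DBA/2J, 1 lower in BALB/cJ and 1 higher in CBA/J. Of all genes it took 4.07% in C57BL/6J, 6.47% in B6C3F1/J, 1.40% in DBA/2J, 1.77% in BALB/cJ and 1.91% in CBA/J.

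Replicate numbers are shared between the diets but only name mice. Same-numbered CR and control mice had correlated deviations over 0.1 in 28 of 55 pairs (median 0.11), which does not pair them. With the replicate block 16 members were called across strains, 1 in the interaction and 10 in C57BL/6J minus CBA/J.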
